A study of Mus musculus with 16 samples.

Results

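The Reg genes (regenerating islet-derived) encode small secreted C-type lectins, and the 7 mouse members Reg1, Reg2, Reg3a, Reg3b, Reg3d, Reg3g and Reg4 were taken by their symbols from the 24421 genes counted in each library. Bulk RNA sequencing had been done on epithelial cells that EDTA released from short stretches of jejunum and ileum taken from wild type C57BL6/J mice. The groups were P6 jejunum, P6 ileum, P36 jejunum and P36 ileum (P6 and P36 are postnatal days 6 and 36, before and after weaning), each with 4 libraries. Each of the 8 mice gave both regions and each age had 2 female and 2 male mice, but the P6 and P36 mice were different animals. No transgene, deletion or treatment was used in any group. The segment came from the middle of each region, so the groups stand for those stretches and not for a whole jejunum or ileum, and the EDTA step was allowed to run longer at P36 than at P6, so that this step and age cannot be told apart.

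Reg proteins share a single carbohydrate recognition domain behind a signal peptide and are released into the lumen of the gut. Reg3b and Reg3g bind and kill bacteria, Reg3g mainly Gram-positive ones, and in the adult small intestine they are made by enterocytes and Paneth cells after the gut is colonized, downstream of toll-like receptor and IL-22 signals through STAT3. Reg1 and Reg2 were described in regenerating pancreatic islets and acinar tissue, Reg3a and Reg3d are further members of the Reg3 group, and Reg4 marks secretory cells of the gut, among them enteroendocrine and deep crypt secretory cells.

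Of the 7 genes, 6 lie side by side on chromosome 6 of mm10, from 78370885 to 78468874 (98 kb), with no other gene of the count files between them. Their order is Reg3b, Reg3d, Reg3a, Reg2, Reg1 and Reg3g, of which Reg3d and Reg3g are on the minus strand. Reg4 lies apart on chromosome 3, from 98222156 to 98236748 on the plus strand. Each gene has 6 exons, which add up to between 692 bases (Reg2) and 1021 bases (Reg4), and none of these exons shared bases with another gene. The members are related closely enough that reads could in principle be split between them, so their transcripts were compared: the coding sequences of Reg3b (525 bases) and Reg3g (522 bases) were 76.7% identical, those of Reg1 and Reg2 79.2%. Reg3b and Reg3g shared 5 stretches of 31 bases and no stretch of 50 bases, and no other pair shared a stretch of 31 bases. An exact stretch of 50 bases thus told the members apart from each other. Other copies in the genome and matches with mismatches were not checked.

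The sequences just before the genes are shown because Reg3b and Reg3g, the pair that held nearly all counts of the family at P36, resembled each other there more than any other pair did. RefSeq promoter entries of build GRCm38.p6 (the assembly called mm10) were matched for 7 of 7 members by symbol, and the 150 bases before the start of the gene are printed 5′ to 3′ along the strand of the gene. The windows are chr6:78370735-78370884 (plus) for Reg3b, chr6:78468875-78469024 (minus) for Reg3g, chr6:78380559-78380708 (plus) for Reg3a, chr6:78425833-78425982 (plus) for Reg1 and chr3:98222006-98222155 (plus) for Reg4. Capitals mark the letters TATAAA, the run of 20 bases that ends Reg3b and Reg3g alike, and, in Reg3b alone among these windows, a match to TTCNNNGAA, the spaced palindrome that STAT factors bind.
Reg3b: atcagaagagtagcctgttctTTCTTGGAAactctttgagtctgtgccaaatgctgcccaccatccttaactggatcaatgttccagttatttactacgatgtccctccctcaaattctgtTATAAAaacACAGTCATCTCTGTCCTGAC
Reg3g: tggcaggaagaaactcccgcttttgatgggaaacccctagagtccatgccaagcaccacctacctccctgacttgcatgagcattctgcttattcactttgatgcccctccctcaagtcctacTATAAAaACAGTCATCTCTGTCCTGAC
Reg3a: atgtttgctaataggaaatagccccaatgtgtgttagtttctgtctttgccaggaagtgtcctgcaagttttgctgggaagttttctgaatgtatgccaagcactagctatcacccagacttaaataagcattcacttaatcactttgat
Reg1: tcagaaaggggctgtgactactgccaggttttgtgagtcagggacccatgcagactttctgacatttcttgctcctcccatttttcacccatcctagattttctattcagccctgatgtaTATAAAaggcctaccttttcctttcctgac
Reg4: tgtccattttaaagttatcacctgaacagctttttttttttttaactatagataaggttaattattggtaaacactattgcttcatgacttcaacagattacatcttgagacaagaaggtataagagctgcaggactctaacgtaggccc
Over the 250 bases before the start, Reg3b and Reg3g were 68.9% identical (177 of 257 aligned columns), and their longest common run was the 20 bases printed above. The other 20 pairs were between 47.8% and 58.5% identical, with no common run above 12 bases. TATAAA (searched on both strands) occurred in Reg1, Reg2, Reg3b and Reg3g and in 12.4% of the 32851 promoters of the table. TTCNNNGAA, which reads the same on both strands, occurred in Reg3b and Reg3d and in 7.02% of all promoters, and the form with 4 bases in the gap in Reg1 and in 5.85%. These matches describe letters and not binding.

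The total count per library lay between 12159237 and 25947276. The p-values measure the spread between libraries of a group, which came from different mice. Outside the fits with the mouse as a block, they do not use that both regions came from the same mice. Levels are counts scaled to 1000000 of the TMM-adjusted library total (CPM), and CPM per kb of exon where genes are compared with each other. A gene was called when edgeR's quasi-likelihood test gave a Benjamini-Hochberg adjusted p below 0.05 over the 13429 genes tested and the absolute log2 fold change exceeded 2, and 6 of the 7 members passed the filter on low counts. Enterocyte markers were abundant in every library (summed level 7012 to 117331 CPM). Markers of other cells moved between groups as well: the summed Paneth cell markers lay between 58.7 and 922 CPM at P6 and between 5199 and 21615 CPM at P36, and the goblet cell markers between 1763 and 4209 CPM and between 11549 and 23849 CPM. The macrophage and neutrophil markers lay between 167 and 510 CPM at P6 and between 3.79 and 17.8 CPM at P36, but nearly all of the P6 sum was Csf1r (152 to 498 CPM): the other 6 summed to 6.30 to 30.6 CPM at P6 and 2.96 to 14.3 CPM at P36, with Mpo at 0 throughout. Pancreatic acinar markers summed to 122 to 309 CPM in the P6 jejunum and to between 7.26 and 79.5 CPM elsewhere, with Cpa1, Amy2b, Try4 and Try5 at 0 in every library. Stromal and muscle markers summed to 399 CPM in P6 ileum replicate 2, against 4.31 to 43.7 CPM in the other 15 libraries. The part of these cells in the Reg results was not tested, and in bulk tissue more cells of a type cannot be told apart from more RNA per cell.

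**Figure D1:**
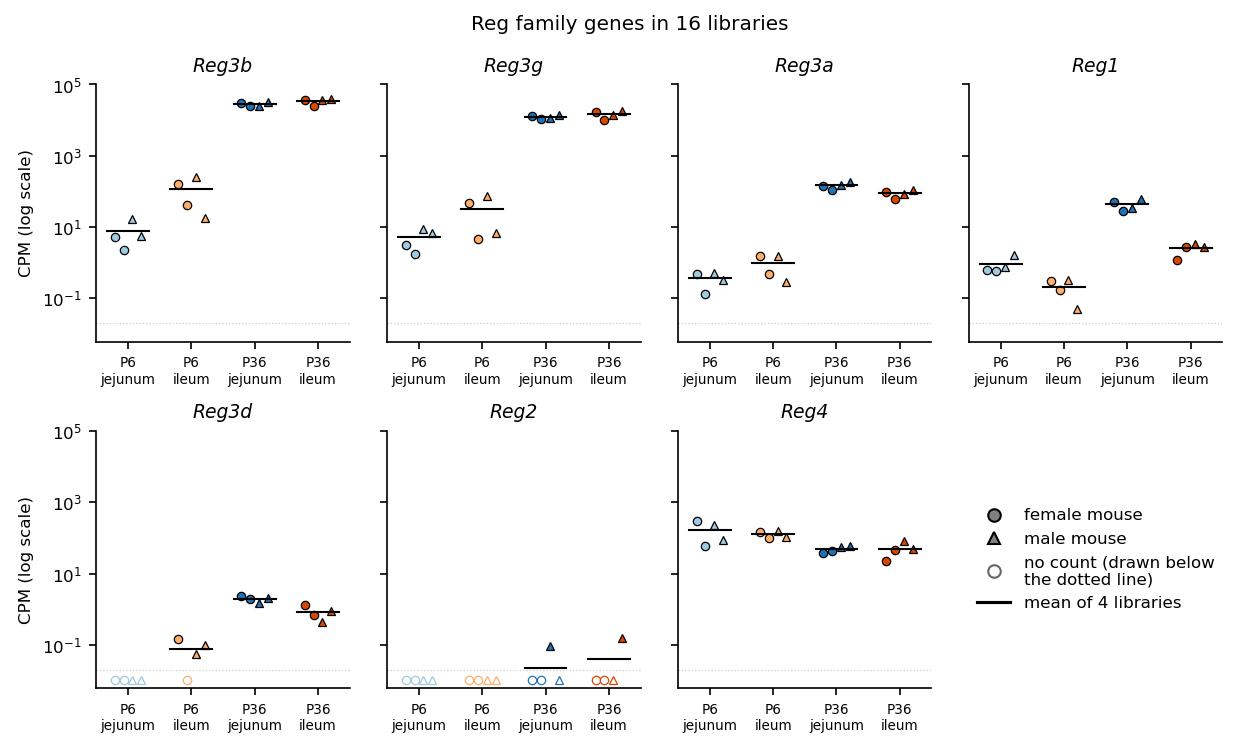
Level of each Reg gene in CPM (log axis) in the 4 groups. Each point is 1 library (circles female, triangles male), lines are means of 4 libraries, and open symbols below the dotted line are libraries without a count. Reg3b and Reg3g are at 10411 CPM or more in all P36 libraries, and Reg4 alone is lower at P36 than at P6.

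Reg3b, a bactericidal lectin, had the highest level of all genes in the P36 libraries. Replicates 1 to 4 of the P6 jejunum were at 5.24, 2.23, 17.1 and 5.51 CPM, and those of the P6 ileum at 166, 42.6, 246 and 18.1 CPM. At P36 the jejunum libraries were at 29626, 24734, 25610 and 31620 CPM, and the ileum libraries at 35626, 24291, 37516 and 39982 CPM. The P36 libraries lay above all P6 libraries, the groups of both regions overlapped at P36, and the P6 ileum lay above the P6 jejunum by a narrow gap (18.1 against 17.1 CPM). Reg3b ranked 1 of all genes both by count and by CPM per kb in each of the 8 P36 libraries, where it took between 428353 and 918564 counts. Its log2 fold change from P6 to P36 was 11.86 ± 1.01 (SE, adjusted p = 7.83e-08) in the jejunum and 8.18 ± 0.88 (adjusted p = 1.09e-06) in the ileum. Only 1 of the 13429 tested genes had a higher log2 fold change in the jejunum and 18 in the ileum.

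Reg3g, the lectin that acts on Gram-positive bacteria at the mucosal surface, followed the same order of groups. The P6 jejunum libraries were at 3.14, 1.78, 8.98 and 6.85 CPM, and the P6 ileum libraries at 47.4, 4.74, 72.5 and 6.91 CPM. By P36 the jejunum stood at 12690, 10897, 11239 and 13863 CPM, and the ileum at 16923, 10411, 14078 and 17981 CPM. The regions overlapped at both ages, while the ages were far apart in both regions. Reg3g ranked 2 of all genes, by count and by CPM per kb, in each P36 library. Its log2 fold change with age was 11.20 ± 1.00 (adjusted p = 1.44e-07) in the jejunum and 8.82 ± 0.92 (adjusted p = 7.73e-07) in the ileum.

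Reg3a, another member of the Reg3 group, rose from a much lower level. A P6 jejunum library held 3 to 11 of its counts (0.134 to 0.525 CPM), a P6 ileum library 6 to 32 (0.294 to 1.58 CPM). At P36 it was at 144, 106, 148 and 189 CPM in the jejunum and at 95.9, 62.5, 82.8 and 109 CPM in the ileum. The ages did not overlap in either region, with log2 fold changes of 8.63 ± 0.49 (adjusted p = 8.12e-10) in the jejunum and 6.51 ± 0.44 (adjusted p = 6.07e-09) in the ileum.

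Reg1, the founding member from pancreatic islets, was the 1 clustered gene with a higher jejunal level at both ages. The P6 jejunum libraries held 14, 13, 14 and 35 counts (0.611, 0.580, 0.735 and 1.68 CPM), and the P6 ileum libraries 6, 4, 6 and 1 (0.296, 0.172, 0.325 and 0.0490 CPM). At P36 the jejunum libraries reached 49.9, 27.5, 34.6 and 61.6 CPM, and the ileum libraries 1.22, 2.84, 3.27 and 2.77 CPM. All neighbouring groups in the order P36 jejunum, P36 ileum, P6 jejunum, P6 ileum were separate except the middle pair, in which the highest P6 jejunum library (1.68 CPM) exceeded the lowest P36 ileum library (1.22 CPM). Its log2 fold change with age was 5.59 ± 0.44 (adjusted p = 3.53e-08) in the jejunum and 3.57 ± 0.51 (adjusted p = 2.08e-05) in the ileum. The pancreatic acinar markers likewise summed higher in the jejunum at P6 without overlap (122 to 309 against 7.26 to 15.2 CPM), while at P36 the regions overlapped (36.9 to 62.9 and 38.0 to 79.5 CPM).

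Reg3d and Reg2 were at the lower edge of detection. Reg3d had no count in the 4 P6 jejunum libraries and 3, 0, 1 and 2 counts in the P6 ileum, against 40, 43, 33 and 39 counts in the jejunum at P36 and 23, 12, 11 and 11 in the ileum. Set against a floor of 3 counts over the P6 jejunum group, it was at least 54.6-fold higher in the P36 jejunum (adjusted p = 2.93e-06), and in the ileum its log2 fold change with age was 3.36 ± 0.60 (adjusted p = 0.00041). Reg2, which is known from the pancreas, had 2 counts in P36 jejunum replicate 3, 2 in P36 ileum replicate 4 and none in the other 14 libraries, and was not tested.

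Reg4, the member outside the cluster, went the other way. The P6 jejunum libraries were at 306, 61.0, 232 and 85.9 CPM, the P6 ileum libraries at 144, 102, 153 and 108 CPM. At P36 it was at 37.5, 41.7, 54.6 and 58.4 CPM in the jejunum and at 22.4, 44.3, 82.9 and 48.0 CPM in the ileum. The ages did not overlap within a region. Its log2 fold change with age was -1.83 ± 0.45 (adjusted p = 0.00286) in the jejunum and -1.36 ± 0.44 (adjusted p = 0.0163) in the ileum, which is short of the fold change minimum in both. In the jejunum it rested on the P6 mice whose names start with L41800: without them the log2 fold change was -0.57 (adjusted p = 0.264), and without the other pair of P6 mice, whose names start with L42150, it was -2.48 (adjusted p = 9.53e-05). Without P6 jejunum replicate 2 or 4 the value was -2.11 or -2.05 and Reg4 was called. The 13 enteroendocrine markers, cells in which Reg4 is known, summed in the jejunum to 346 to 422 CPM at P6 and 301 to 443 CPM at P36, and in the ileum to 381 to 444 CPM and 182 to 259 CPM. Much of the ileal sum at P6 was Nts, which went from a mean of 196 to 40.6 CPM. In the ileum Gcg (41.2 to 59.0 CPM), Sct (20.5 to 22.5 CPM) and Gip (3.42 to 6.17 CPM) had higher means at P36, and the remaining markers lower ones. Markers of deep crypt secretory cells were not summed.

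With age, 5 of the 6 tested members were called higher at P36 in the jejunum, where 7.86% of all tested genes were, and 5 of 6 in the ileum, where 6.4% were. The 5 were Reg1, Reg3a, Reg3b, Reg3d and Reg3g in both regions, the members of the chromosome 6 cluster that had enough counts. No library left out ended any of these 10 calls, and neither did leaving out either pair of P6 mice. The members' median log2 fold change was 8.46 in the jejunum, or 7.20 with Reg3d set to its lower bound, against -0.01 for all tested genes, and 5.04 in the ileum against -0.03. The age comparisons of the regions draw on the same 8 mice and are not independent of each other.

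**Figure D2:**
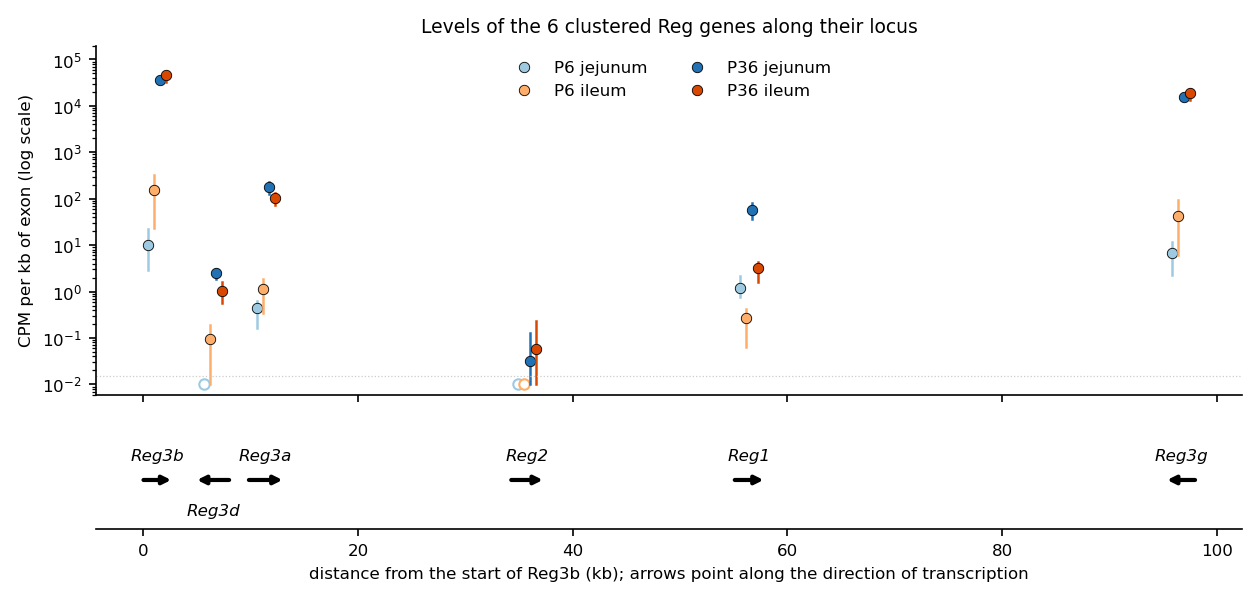
Mean level (points, CPM per kb of exon, log axis) of the 6 clustered genes in each group, placed by distance in kb from the start of Reg3b. Vertical lines run from the lowest to the highest library, and symbols below the dotted line stand for 0. The outermost genes, Reg3b and Reg3g, are at 13451 CPM per kb or more in every P36 library, while Reg2 between them is at 0.0572 CPM per kb at most on average.

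Along the locus, level did not follow position. At P36 the CPM per kb was 36756 ± 4309 (SD, n = 4) in the jejunum for Reg3b at 1 end of the cluster and 15727 ± 1769 for Reg3g at the other, 98 kb away. Between them, Reg3a was at 175 ± 40.4, Reg1 at 56.4 ± 19.9, Reg3d at 2.5 ± 0.468 and Reg2 at 0.0324 ± 0.0649 CPM per kb. The ileum had the same order except that Reg1 (3.28 ± 1.17 CPM per kb) lay closer to Reg3d (1.05 ± 0.445 CPM per kb), without reaching Reg3a (105 ± 23.6 CPM per kb). At P6 Reg4 was the highest member per kb in the jejunum (168 ± 115 CPM per kb, against 9.89 ± 8.62 for Reg3b). In the P6 ileum Reg3b (156 ± 141 CPM per kb) and Reg4 (124 ± 25.0 CPM per kb) overlapped: Reg3b was the higher in the L41800 mice and Reg4 in the L42150 mice.

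**Figure D3:**
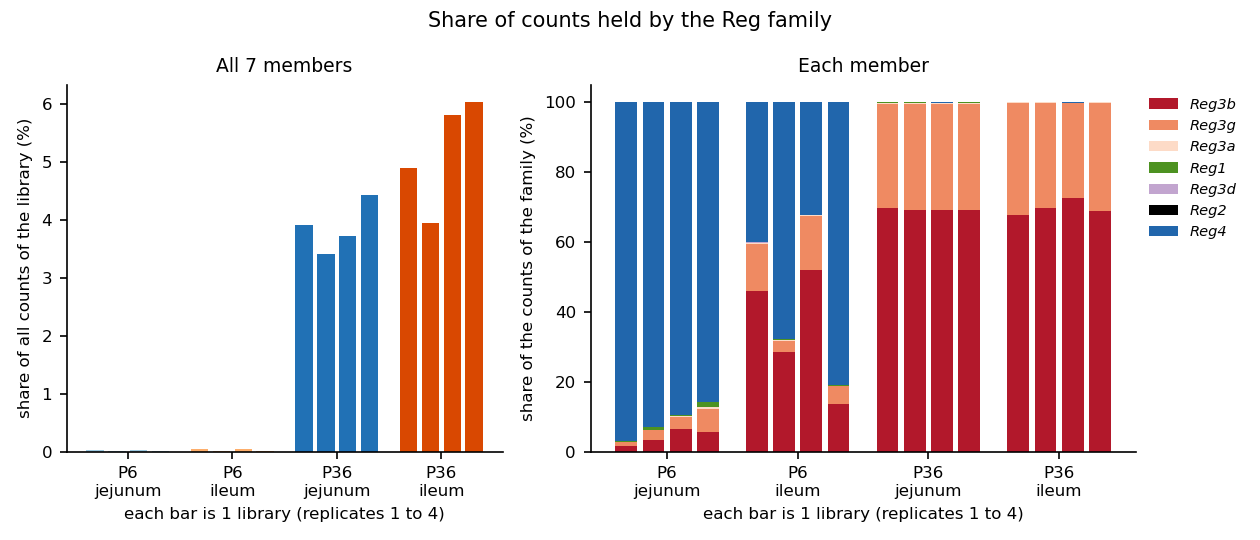
Left, share of all counts of a library that fell on the 7 Reg genes (%), 1 bar per library. Right, share of these counts held by each member (%). The family held at most 0.0525% of counts at P6, and 3.42% to 6.04% at P36, nearly all Reg3b and Reg3g.

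The family took up a share of the P36 epithelial mRNA that is visible at the scale of the whole library. At P36 it held 3.87 ± 0.423% (SD, n = 4) of all counts in the jejunum and 5.18 ± 0.954% in the ileum, against 0.0167 ± 0.0110% and 0.0306 ± 0.0183% at P6. The regions overlapped at P36 (3.42% to 4.43% and 3.95% to 6.04%). Without Reg3b and Reg3g the other 5 members held, at P36, 0.0231 ± 0.00546% of jejunal and 0.0149 ± 0.00362% of ileal counts, against 0.0156 ± 0.0106% and 0.0140 ± 0.00293% at P6. Reg4 accounted at P6 for 91.2 ± 4.83% of the family's counts in the jejunum and 55.3 ± 22.9% in the ileum. At P36 Reg3b accounted for 69.2 ± 0.285% in the jejunum and 69.7 ± 2.06% in the ileum, and Reg3g for 30.2 ± 0.265% and 30.0 ± 2.10%.

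The proportion of Reg3b to Reg3g varied little between P36 libraries. Their count ratio (Reg3b over Reg3g) was between 2.27 and 2.33 in the 4 P36 jejunum libraries and between 2.11 and 2.66 in the P36 ileum. At P6 it was between 0.804 and 1.90 in the jejunum, where Reg3g exceeded Reg3b in replicate 4, and between 2.62 and 8.99 in the ileum. The P6 regions did not overlap in this ratio and the P36 regions did.

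**Figure D4:**
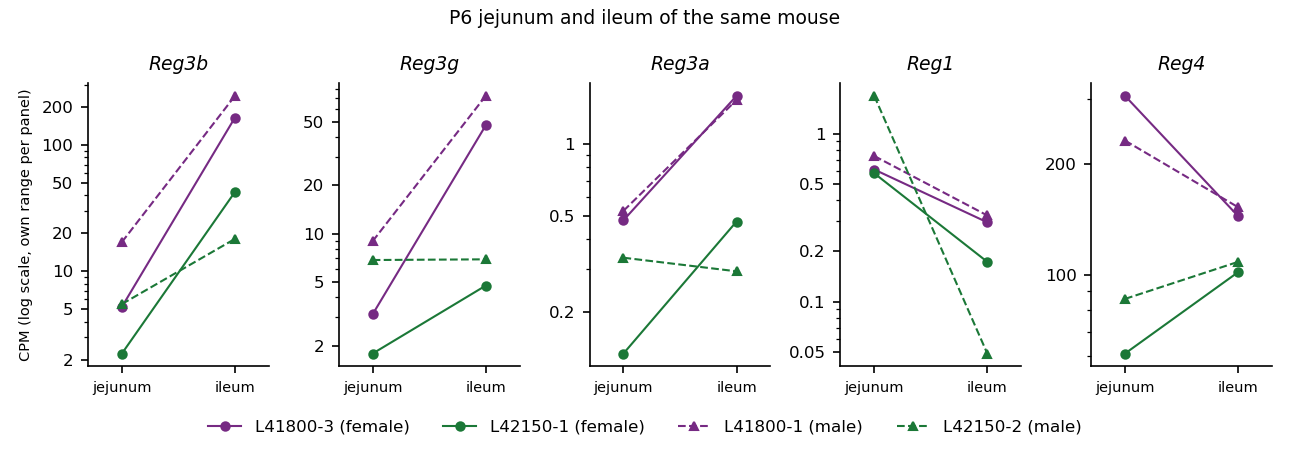
CPM (log axis, its own range in each panel) of 5 Reg genes in the jejunum and ileum of each P6 mouse; lines join libraries of 1 mouse and colours mark the start of its name. Reg3b is higher in the ileum in all 4 mice, by 3.29-fold to 31.6-fold, and the 2 L41800 mice lie above the 2 L42150 mice in the ileum.

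Between the P6 regions 4 of the 6 tested members were called, where 6.5% of all tested genes were, and 3 of them were higher in the ileum, where 4.3% were, and 1 higher in the jejunum, where 2.20% were. Reg3b (log2 fold change of the jejunum over the ileum -3.98 ± 0.73, adjusted p = 0.000815) and Reg3g (-2.67 ± 0.71, adjusted p = 0.0112) were higher in the ileum. Reg1 was higher in the jejunum (2.08 ± 0.54, adjusted p = 0.00953). Reg3d was called higher in the ileum on 6 counts against 0 (at least 2.07-fold, adjusted p = 0.0308), a call that 9 of its 27 alternatives did not keep. Reg3a (-1.37 ± 0.51, adjusted p = 0.0587) and Reg4 (0.43 ± 0.43, adjusted p = 0.494) were not called. In a fit with the mouse as a block Reg3a passed on the adjusted p (-1.31, adjusted p = 0.00743), below the fold change minimum.

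Within mice, Reg3b was higher in the ileum in 4 of 4 P6 animals, by 31.6-fold and 14.4-fold in the L41800 mice (replicates 1 and 3) and by 19.1-fold and 3.29-fold in the L42150 mice (replicates 2 and 4). Reg3g was 15.1-fold, 2.66-fold, 8.07-fold and 1.01-fold higher in replicates 1 to 4, so that in replicate 4 the regions were level. Reg1 was higher in the jejunum in 4 of 4 animals, by 2.06-fold to 3.37-fold in replicates 1 to 3 and by 34.2-fold in replicate 4, where the ileum had a single count. Reg3a was higher in the ileum in 3 of 4 animals, and Reg4 was higher in the ileum in 2 and in the jejunum in 2.

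The P6 mice fell into pairs by the start of their names, and members followed it. In the ileum the L41800 mice lay above the L42150 mice in Reg3b (166 and 246 against 42.6 and 18.1 CPM), in Reg3g (47.4 and 72.5 against 4.74 and 6.91 CPM) and in Reg3a (1.58 and 1.52 against 0.474 and 0.294 CPM). Of the 6 tested members, 4 (these and Reg1) were at least 2-fold higher without overlap in the L41800 ileum, where 4.91% of all tested genes were. In the jejunum 2 of 6 were, Reg3a and Reg4, where 2.68% of tested genes were. Of the Paneth cell markers, Itln1, an intestinal lectin outside the Reg family, was at 782 and 557 CPM in the jejunum of the L41800 mice and at 7.09 and 4.36 CPM in that of the L42150 mice, and in the ileum at 620 and 435 against 10.3 and 8.09 CPM. Mptx1 was at 76.3 and 74.7 against 4.60 and 50.6 CPM in the jejunum. Its ileum levels overlapped, at 127 and 91.5 against 10.3 and 341 CPM. Mptx2 was at 27.1 and 26.3 against 0.402 and 16.4 CPM in the jejunum. It overlapped in the ileum too, at 46.1 and 41.1 against 2.71 and 123 CPM. The sums of the 8 other detected Paneth cell markers overlapped in the jejunum (35.99 and 23.3 against 46.6 and 32.7 CPM). In the ileum these sums were lower in the L41800 mice (56.1 and 52.1 against 61.5 and 90.9 CPM). What the name stands for is not given in the sources used here, each pair holds 1 female and 1 male mouse, and with 2 mice a side no test was made.

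The call of Reg3b as higher in the ileum held with either pair left out and that of Reg3g did not; the difference between the pairs was not tested. Without the L41800 mice the log2 fold change of the jejunum over the ileum was -3.0 (adjusted p = 0.0044) for Reg3b and -0.46 (adjusted p = 0.552) for Reg3g. Without the L42150 mice it was -4.21 (adjusted p = 0.000238) and -3.31 (adjusted p = 0.000515). Reg1 kept its call without the L41800 mice (3.21, adjusted p = 0.0257) and lost it without the L42150 mice (1.09, adjusted p = 0.344). Single libraries mattered as well: Reg3g was below the fold change minimum without P6 ileum replicate 3 (-1.95, adjusted p = 0.0417), and so was Reg1 without P6 ileum replicate 2 (1.99), P6 ileum replicate 4 (1.76) or P6 jejunum replicate 4 (1.59). With the mouse as a block Reg1 stood at the minimum, with a log2 fold change of 2.00 (adjusted p = 0.0408), and was not called. With only the 8 P6 libraries in the fit Reg3g missed the threshold (-2.67, adjusted p = 0.0751), and with counts thinned to the smallest library Reg1 did (2.12, adjusted p = 0.0548). Without P6 ileum replicate 1, or without any 1 of the 4 P6 jejunum libraries, the adjusted p of Reg3d lay between 0.0512 and 0.079. No library left out ended the call of Reg3b, whose log2 fold change then lay between -4.77 and -3.35. P6 ileum replicate 2, with its stromal markers, was 1 of the lower ileum libraries for Reg3b and Reg3g. Replicate 4, the lowest for Reg3b, had the lowest enterocyte and goblet cell sums of the P6 ileum (11956 and 2063 CPM). Over all genes it differed more from the other P6 ileum libraries (chi-square per gene 226 to 272) than those did from each other (20.4 to 41.0).

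Between the P36 regions 1 of the 6 tested members was called, Reg1, where 3.6% of all tested genes were (2.06% higher in the jejunum and 1.55% higher in the ileum). It was higher in the jejunum (log2 fold change 4.10 ± 0.40, adjusted p = 5.34e-06), in 4 of 4 mice and by 41.0-fold, 9.69-fold, 10.6-fold and 22.2-fold in replicates 1 to 4. No alternative ended this call. Reg3a and Reg3d were also higher in the jejunum in 4 of 4 mice, Reg3a by 1.5-fold to 1.78-fold and Reg3d by 1.85-fold to 3.30-fold, with log2 fold changes of 0.74 ± 0.33 (adjusted p = 0.144) and 1.26 ± 0.46 (adjusted p = 0.0854). Reg3b (-0.30, 95% interval -1.56 to 0.95) and Reg3g (-0.29, -1.56 to 0.99) were higher in the ileum in 3 of 4 mice, and Reg4 (-0.04, -0.90 to 0.82) in 2 of 4. The spread in this fit is shared with the P6 libraries, and the intervals were narrower with the mouse as a block (Reg3b -1.11 to 0.55, Reg3g -1.21 to 0.69) and with only the 8 P36 libraries (Reg3b -0.70 to 0.12, Reg3g -0.68 to 0.12). Within mice the ileum level was 0.982-fold to 1.46-fold that of the jejunum for Reg3b and 0.955-fold to 1.33-fold for Reg3g. With only the 8 P36 libraries Reg3a (0.75, adjusted p = 0.0245) and Reg3d (1.27, adjusted p = 0.0307) passed on the adjusted p, below the fold change minimum. With the mouse as a block Reg3a (0.74, adjusted p = 0.0144) and Reg3d (1.32, adjusted p = 0.0425) did so too.

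Whether the regional difference changed with age was tested by the interaction, in which 3 of the 6 tested members passed (adjusted p below 0.05, no fold change minimum), against 8.69% of all tested genes. The difference of jejunum over ileum was lower at P6 than at P36 by a log2 value of -3.68 ± 0.94 for Reg3b (adjusted p = 0.0229), -2.11 ± 0.60 for Reg3a (adjusted p = 0.0399) and -4.94 ± 1.24 for Reg3d (adjusted p = 0.0274), whose value rests on the P6 jejunum libraries without a count. Reg3g (-2.38 ± 0.95, adjusted p = 0.141), Reg1 (-2.02 ± 0.72, adjusted p = 0.0976) and Reg4 (0.48 ± 0.62, adjusted p = 0.678) did not pass. The passing values were close to the threshold: Reg3b missed it without P36 ileum replicate 2, P6 jejunum replicate 1 or P6 jejunum replicate 4 (adjusted p = 0.0535, 0.0538 and 0.0539), Reg3d without P6 ileum replicate 1 or P6 jejunum replicate 1 (adjusted p = 0.0657 and 0.0507), and Reg3a (adjusted p between 0.0592 and 0.0924) without P36 ileum replicate 2 or 3, P36 jejunum replicate 1, 3 or 4, P6 ileum replicate 1 or 3, or P6 jejunum replicate 1, 2 or 4. None passed without P6 jejunum replicate 1. Reg1 passed without P6 jejunum replicate 4 (adjusted p = 0.0351) and Reg3g without P6 ileum replicate 4 (adjusted p = 0.0469).

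**Figure D5:**
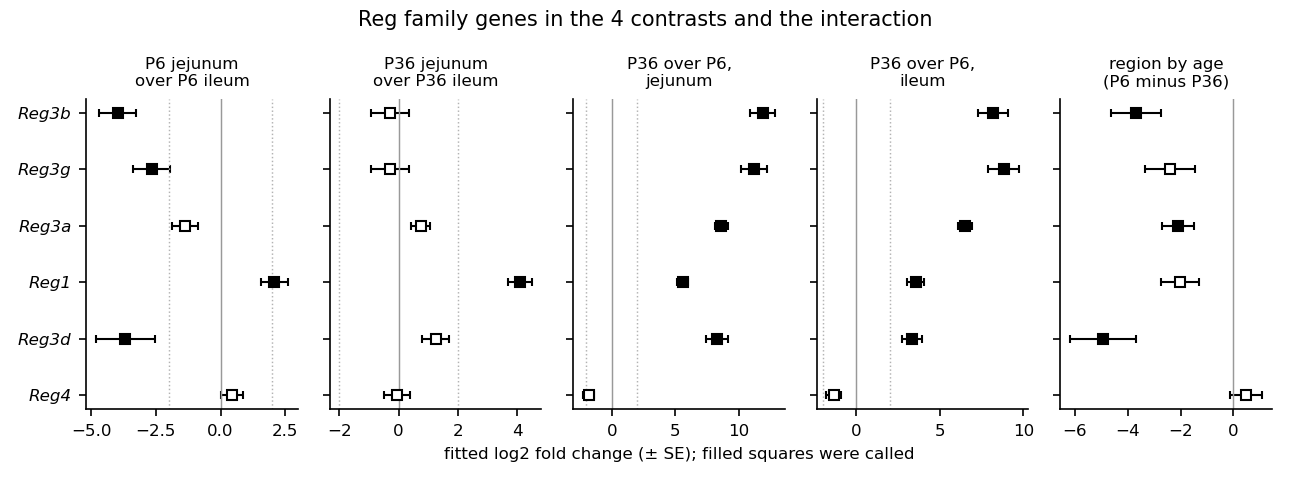
Fitted log2 fold change ± SE of the 6 tested members in the 4 contrasts and the interaction (jejunum over ileum at P6 minus the same at P36); filled squares were called and dotted lines mark the fold change minimum of 2. Reg1 alone is filled between the P36 regions, and 5 members are filled with age in both regions. The values of Reg3d against the P6 jejunum are set by a group without counts.

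Sex was balanced within groups. The levels of Reg4 in males lay above those in females in both regions at P36. In the P36 jejunum it was at 37.5 and 41.7 CPM in females and 54.6 and 58.4 CPM in males, and in the P36 ileum at 22.4 and 44.3 against 82.9 and 48.0 CPM. Reg3b was higher in males than in females in the P36 ileum (37516 and 39982 against 35626 and 24291 CPM) but not in the P36 jejunum. Males were also the higher without overlap for Reg3a in the P36 jejunum and for Reg1, Reg3b and Reg3g in the P6 jejunum. This made 2 of 6 members in the P36 jejunum, where 21.9% of all tested genes were higher in males in the same way, 2 of 6 in the P36 ileum (20.8%), 3 of 6 in the P6 jejunum (10.0%) and 0 of 6 in the P6 ileum (9.35%). With 2 mice a sex these are values without a test, and sex as a covariate changed none of the members' calls.

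Of the genes listed for comparison with the Reg lectins, some moved with age. Of the 19 tested genes of other secreted antimicrobial and defence products, 13 were called higher at P36 in the jejunum and none lower, and 15 higher and 1 lower in the ileum (median log2 fold changes 4.70 and 4.78). Of all tested genes, 7.86% were called higher and 8.59% lower in the jejunum, and 6.4% and 10.0% in the ileum. Lyz1 and Ang4 of this list, Itln1 of the other lectins and Mmp7 also stand in the Paneth cell marker list, Zg16 in the goblet cell list and Lyz2 in the macrophage list. Pla2g2a, a phospholipase gene of Paneth cells, had 5 counts over the P6 jejunum and 2954 over the P36 jejunum. Its log2 fold change was 9.15 ± 0.40 (adjusted p = 6.19e-11) in the jejunum and 8.20 ± 0.35 in the ileum. Its enzyme activity was not measured. Dmbt1, a mucosal scavenger receptor that binds bacteria, went from 167 to 4419 CPM in the jejunum (4.73 ± 0.25) and from 44.1 to 5163 CPM in the ileum (6.87 ± 0.27). Lyz1, the Paneth cell lysozyme, went from 9.25 to 3802 CPM in the jejunum (8.68 ± 0.46), and from 18.5 to 5803 CPM in the ileum (8.30 ± 0.45), though reads of its close copy Lyz2 may be split between them. Duox2, an oxidase that makes hydrogen peroxide, changed by 7.31 ± 0.50 in the jejunum, and its maturation factor Duoxa2 by 6.74 ± 0.46 in the ileum. Between the P6 regions 2 of these genes were called higher in the jejunum, the gasdermins Gsdmc2 (jejunum over ileum 2.64 ± 0.44, adjusted p = 0.000384) and Gsdmc4 (2.45 ± 0.46, adjusted p = 0.00102), and 4 in the ileum, among them Sprr2a3, a small proline-rich protein with close copies (-3.09 ± 0.56, adjusted p = 0.000702), and Ltf, the iron-binding lactoferrin (-2.53 ± 0.48, adjusted p = 0.00117). Without the L41800 mice Gsdmc2 (1.54), Gsdmc4 (1.68) and Sprr2a3 (-1.46) were not called. In the interaction 5 of these genes passed, Dmbt1 (2.14 ± 0.30), Gsdmc2 (3.17 ± 0.59), Gsdmc4 (3.27 ± 0.63) and Ltf (-3.06 ± 0.68) with the smallest adjusted p. Between the P36 regions only Saa1, a serum amyloid A induced by bacteria, was called (-4.91 ± 0.53, adjusted p = 1.32e-05). Of all tested genes, 2.20% were called higher in the P6 jejunum, 4.3% in the P6 ileum and 3.6% between the P36 regions. In the interaction 8.69% passed.

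Of the 31 tested genes of IL-22, IL-17, STAT3 and toll-like receptor signalling, 9 were called higher and 1 lower at P36 in the jejunum and 6 higher and 2 lower in the ileum (median log2 fold changes 0.70 and -0.000183). The shares of all tested genes were 7.86% higher and 8.59% lower in the jejunum, and 6.4% and 10.0% in the ileum. Tlr5, the flagellin receptor, fell in both regions, from 36.4 to 0.783 CPM in the jejunum (log2 fold change -5.52 ± 0.24, adjusted p = 7.16e-11) and from 37.8 to 1.54 CPM in the ileum (-4.62 ± 0.23). Tlr3, the receptor for double-stranded RNA, rose from 1.71 to 49.7 CPM in the jejunum (4.85 ± 0.27) and from 1.93 to 51.2 CPM in the ileum (4.73 ± 0.27). Tlr1, a receptor for bacterial lipopeptides, was higher at P36 in both regions (5.03 ± 0.46 and 5.12 ± 0.42). So was Il18, an epithelial cytokine (3.25 ± 0.27 in the jejunum and 2.45 ± 0.26 in the ileum). Between the P6 regions 5 of these genes were called higher in the ileum and none in the jejunum, where 4.3% and 2.20% of all tested genes were. Il18r1, a subunit of the IL-18 receptor, had 99.7 CPM in the ileum at P6 against 0.339 CPM in the jejunum (-8.20 ± 0.45, adjusted p = 6.19e-09), and Tlr4, the lipopolysaccharide receptor, had 1.83 and 0.107 CPM (-4.04 ± 0.71). Il18r1 was also lower at P36 than at P6 in the ileum (-7.08 ± 0.42). Il6ra, a subunit of the IL-6 receptor (-2.66 ± 0.47), and Tlr2, which pairs with Tlr1 (-2.53 ± 0.39), were higher in the P6 ileum too, Tlr2 short of the fold change minimum without the L41800 mice (-1.82). Tlr4 and Il17re, a subunit of the IL-17C receptor, were the 2 called between the P36 regions, both higher in the ileum (-3.62 ± 0.66 and -2.21 ± 0.53). In the interaction 5 passed, against 8.69% of all tested genes. The smallest adjusted p belonged to Il18r1 (-8.54 ± 0.60), Nod2 (-2.31 ± 0.49), Il10rb (-0.90 ± 0.20) and Il6st (-0.85 ± 0.21). Nod2 did not pass without the L41800 mice (adjusted p = 0.081), nor Il6st without the L42150 mice (adjusted p = 0.1).

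Of the 16 tested genes of other intestinal lectins, 5 were called higher at P36 in the jejunum and none lower, and 3 higher and 2 lower in the ileum. The median log2 fold changes were 1.03 and 0.62. Among all tested genes, 7.86% were called higher and 8.59% lower in the jejunum, and 6.4% and 10.0% in the ileum. Zg16, a goblet cell lectin that binds Gram-positive bacteria, went from 26.0 to 3486 CPM in the jejunum (log2 fold change 7.06 ± 1.04) and from 7.66 to 4121 CPM in the ileum (9.08 ± 1.14). Lgals2, a galectin of enterocytes, went from 180 to 1348 CPM in the jejunum (2.91 ± 0.21) and from 153 to 1409 CPM in the ileum (3.2 ± 0.21). Lgals3, another galectin, changed by 2.92 ± 0.30 in the jejunum and by 2.03 ± 0.29 in the ileum, where it was under the fold change minimum without P36 ileum replicate 1 (1.93) or 4 (1.98), without P6 ileum replicate 3 (1.85) and without the L41800 mice (1.74). Clec2h changed by 2.02 ± 0.36 in the jejunum, and was under the minimum without P36 jejunum replicate 1 (1.98), P6 jejunum replicate 1 (1.87) or 3 (1.82), or the L41800 mice (1.58). Clec2e was lower at P36 in the ileum (-2.48 ± 0.38). Mbl2, a mannose-binding lectin, was higher in the jejunum at P6 (jejunum over ileum 5.04 ± 0.98, not called without the L42150 mice, 3.5, adjusted p = 0.0953) and at P36 (7.26 ± 0.87), from 4 and 8 counts in the ileum. Colec12 was higher in the P6 ileum (-2.79 ± 0.79) but not called without P6 ileum replicate 2 (-2.19, the library with stromal markers), without P6 jejunum replicate 1, 2 or 4 (-2.46, -2.69 and -2.6) or without the L42150 mice (-0.97). Of the 4 tested genes proposed as Reg receptors or processing enzymes, only Mmp7, the Paneth cell protease that activates defensins, was called, higher at P36 in the jejunum (5.05 ± 0.50) and in the ileum (4.94 ± 0.49). Extl3, a proposed Reg receptor that the naming rule did not pick, was at 31.2 ± 8.77 CPM at P6 and 23.2 ± 0.609 CPM at P36 in the jejunum and was not called in any comparison.

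The genes whose profiles over the 16 libraries lay nearest to each member were found by the root mean square difference of centred log2 CPM, in which 0 means the same shape. Reg3g was nearer to Reg3b (0.70) than any gene outside the family. Outside it, Car4, a membrane carbonic anhydrase of enterocytes, was at 1.05 from Reg3b and 0.72 from Reg3g, and Gm14851 at 1.02 and 0.86. For Reg3a they were Ocm (0.45), Cyp4f14 (0.61) and Slc28a3 (0.72), for Reg1 Arl14 (0.90), Ces2g (0.91) and Sphk1 (0.92), and for Reg4 Adgrl2 (0.43), Acpp (0.49) and Stau2 (0.49). For Reg3d, with its low counts, they were Cobl (0.37), 1700123I01Rik (0.37) and Trim36 (0.45). Reg4 stood farthest from Reg3b within the family (6.22).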

How the data were processed

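mRNA of EDTA-released epithelium was sequenced from 16 libraries. The authors prepared stranded mRNA libraries (Kapa), used Trimmomatic 0.38 for trimming and STAR for alignment to mm10 (version 2.5.3 in the submitters' processing notes, another version in the paper) and deposited raw read-pair counts per gene from featureCounts 1.6.3 on exons of the UCSC annotation, reverse strand. Multi-mapping reads were not counted, which can lower near-identical genes. Library totals of 12159237 to 25947276 limit genes with few counts. No 2 libraries of a group agreed within sampling noise.

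From these counts, genes passing filterByExpr (13429) were scaled by TMM and tested with edgeR 4.0.16 (R 4.3.3) in 1 fit of 4 group means, with Benjamini-Hochberg adjustment over all tested genes. The script was tested on simulated data. Replicate numbers pair regions of a mouse (mouse name in the titles): deviations from the group means correlated within mice across genes at 0.391, 0.383, 0.336 and 0.157 (P6) and 0.288, 0.337, 0.347 and 0.240 (P36). Alternatives were DESeq2 1.42.0, other scalings and filters, sex as a covariate, thinned counts, fits of 8 libraries, a mouse block, and each library left out. P6 mice by name prefix were left out after seeing the data.

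The members, the gene lists and the tests were chosen with earlier results of these data known. Named genes were all members, up to 4 called genes per list and contrast with the smallest adjusted p, and the 3 nearest profiles per tested member, of which 1 gene is not reported here. Sequence comparisons used Biopython 1.88, RefSeq promoters and GENCODE transcripts. Dab2 mutant, single-cell and human data were not analysed here.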

Additional observations from a re-analysis of the deposited data

Results flagged for a closer look

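In the P6 jejunum, Reg1 was at 1.676 CPM in replicate 4. This stood apart from 0.580 to 0.735 CPM in the other 3 libraries by more than Dixon's critical value for 4 samples. Chance flags about 1 in 20 groups. The 28 groups of members include Reg2 at P6 and Reg3d in the P6 jejunum, which had no count and cannot be flagged. Reg2 at P36, with counts in a single library of each region, is not listed here. The regional difference (jejunum over ileum) differed between the ages in the interaction test for Reg3a (log2 -2.11, adjusted p = 0.0399), Reg3b (-3.68, adjusted p = 0.0229) and Reg3d (-4.94, adjusted p = 0.0274).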

How the results depend on the processing

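Of 30 log2 fold changes of members, 20 stayed on their side of the call in every refit, and of 811 refits 763 did, with 39 losing a call, 9 gaining one and none changing direction past the threshold. Of the 48 named list gene results, 38 stayed in every refit. The 5 calls with age in each region and the single call between the P36 regions stayed within 1.5 times of their count under every alternative. Without Reg3b and Reg3g the share of a library held by the family went to 0.0231% in the P36 jejunum and 0.0149% in the ileum. The count of members called between the P6 regions went from 4 to 2 with counts thinned to the smallest library, to 2 with only the 8 libraries compared, to 2 without the L41800 mice and to 2 without the L42150 mice, and lay between 2 and 4 with each library left out. The interaction count went from 3 to 1 with thinned counts and to 1 without the L41800 mice, and lay between 0 and 4 with each library left out (0 without P6 jejunum replicate 1). The causes were not tested beyond the fewer samples or counts of these refits. With the mouse as a replicate block, 3 members were called between the P6 regions, 1 between the P36 regions and 3 in the interaction, and Reg1 between the P6 regions (2.00) was the 1 member call it changed. The age comparisons have no block because P6 and P36 mice were different animals. Scaling by library totals put Reg1 between the P6 regions at 1.80, under the fold change minimum, and DESeq2 passed Reg1 in the interaction (adjusted p = 0.0259). Depth limits Reg2 (4 counts in all) and Reg3d (6 counts at P6).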
